A study of Mus musculus with 8 samples.

Results

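Cells at the bottom of the mouse intestinal crypt can be isolated by surface EphB2 or by a green fluorescent reporter in the Lgr5 gene, and the data here set these sorts against each other. The comparison used 3 of the 8 Affymetrix arrays of the study: 1 array of Lgr5 High cells and 2 arrays of EphB2 High cells, chosen by their titles. All cells were intestinal crypt cells of strain C57BL/6, separated into single cells with EDTA and enzymes and then sorted by flow cytometry. The Lgr5 High and Lgr5 Low cells came from knock-in mice whose Lgr5 allele carries EGFP, with 1 array each. The EphB2 High, Medium and Low cells were sorted with an anti-EphB2 antibody, with 2 arrays each, 1 from each of a first and a second hybridization, and no reporter is named for them. The Lgr5 arrays were a separate, later hybridization. The genotype, the marker of the sort and the hybridization therefore cannot be told apart in any difference between Lgr5 High and EphB2 High. The reporter also reports only the cells in which the knock-in allele is active, and the knock-in disrupts that copy of the gene. No label ties the EphB2 replicates to different animals, and a p-value here reflects only how far these arrays differ, which may be technical spread.

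Lgr5 is a receptor for R-spondins, secreted proteins that strengthen Wnt signalling, and marks the cycling stem cells that lie between Paneth cells at the crypt base. EphB2 is a receptor tyrosine kinase switched on by Wnt signalling, and its level on the cell surface falls gradually from the crypt base upward. Daughters of the stem cells pass through a dividing transit-amplifying stage. They become absorptive enterocytes or secretory cells, the latter being goblet, enteroendocrine, tuft and Paneth cells. A sort by EphB2 takes a range of positions along the crypt, whereas the reporter takes cells in which the Lgr5 gene is active.

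The deposited values are log2 intensities after RMA, and array medians lay between 6.12 and 6.20. Of 45101 probe sets, 34945 named exactly 1 gene, and these stood for 18193 genes, each given below by its brightest probe set over all 8 arrays. Differences are Lgr5 High minus the mean of both EphB2 High arrays on the log2 scale, ± the standard error of limma, and the lone Lgr5 High array is assumed to vary like the EphB2 pairs. A probe set was discounted where Lgr5 Low lay above the highest, or below the lowest, of the 6 EphB2 arrays on the same side as Lgr5 High lay from EphB2 High. Epithelial genes read alike in all sorts, with a median over 11 genes of 13.51 in Lgr5 High and 13.55 to 13.67 on the other arrays. The X-inactivation transcript Xist read 13.02 in Lgr5 High, 12.67 and 12.66 in EphB2 High, and between 12.06 and 12.86 on the other arrays.

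Most markers of mature enterocytes, goblet cells and tuft cells lay lower in the Lgr5 High array than in both EphB2 High arrays, while most stem cell markers lay slightly higher. Enteroendocrine markers were clearly lower only against the first EphB2 High array, with a median difference of -0.10 against the second. Of 27 such genes 16 lay below both, where 44.7% of all genes did. The median difference was -1.27 for 27 enterocyte genes, -0.85 for 22 goblet genes, -0.59 for 23 tuft genes and -0.56 for 27 enteroendocrine genes. It was 0.22 for 27 stem cell genes and 0.04 for 13 Paneth cell genes, against -0.05 over all 18193 genes. These are levels of RNA in bulk samples, where fewer cells of a type and less RNA per cell cannot be told apart. None of the differences kept after the discount passed limma's adjusted p, so the lists are described by their values.

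**Figure D1:**
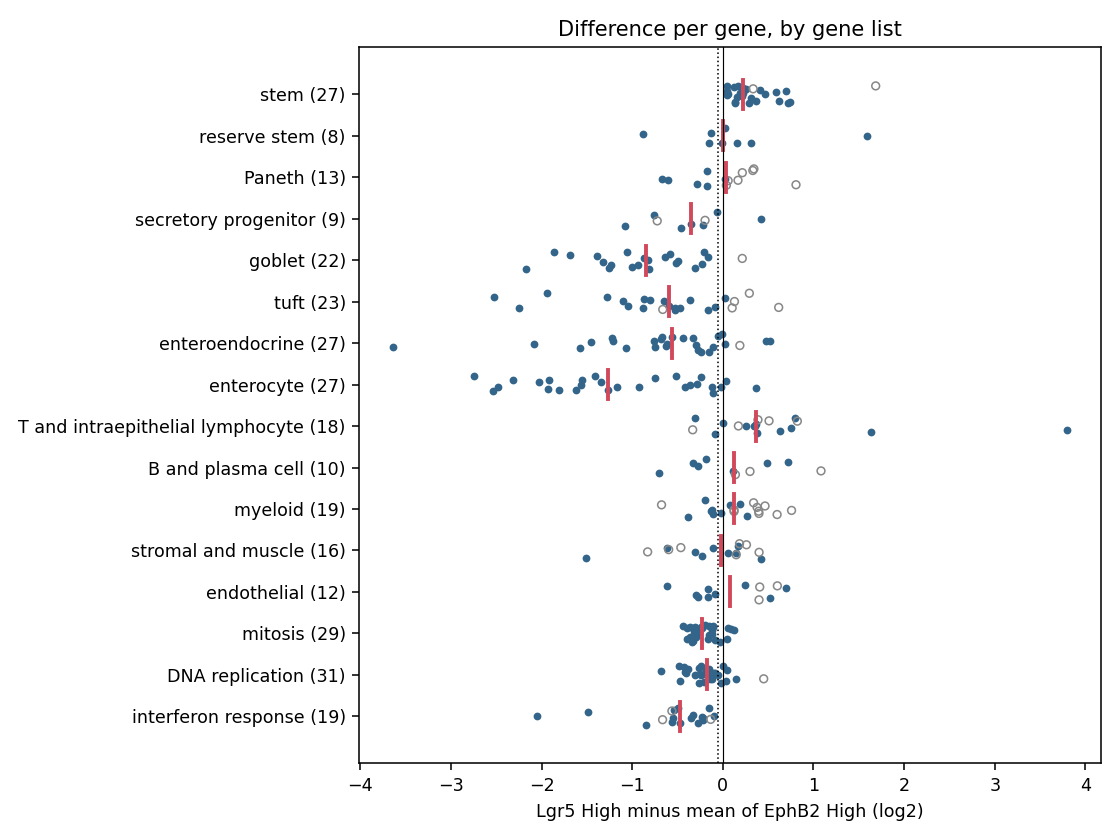
Each point is 1 gene, placed by its difference between Lgr5 High and the mean of EphB2 High in log2 units, for 16 of the gene lists (number of measured genes in brackets). Open points are discounted genes, red bars are list medians, and the dotted line is the median of all genes (-0.05). Enterocyte, goblet, tuft and enteroendocrine genes extend far to the left, and the 27 stem cell genes all lie right of 0.

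limma called 4 probe sets higher in Lgr5 High (0.0114% of 34945) and 0 lower, and all 4 were among the discounted ones. At an unadjusted p below 0.05, 1785 were higher (5.11%) and 2662 lower (7.62%). The number of calls ran from 0 to 92 over the alternative fits, and the number kept from 0 to 65. The highest of these came from a prior variance that follows the intensity, under which 63 of the 65 kept probe sets were lower. A description by size was therefore used, namely the genes whose Lgr5 High value lay at least 1 log2 unit, that is 2-fold, outside both EphB2 High arrays. Of 18193 genes, 44 lay this far above and were kept after the discount (0.242%), and 146 lay this far below and were kept (0.803%). Both counts rest on having a pair of EphB2 High arrays. Over probe sets, 84 lay above (0.24%) and 211 below (0.604%), whereas against the second EphB2 High array alone 169 and 327 did, and against the first alone 262 and 436.

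Across all 34945 probe sets, the SD of the log2 difference was 0.448 between Lgr5 High and the first EphB2 High array, 0.404 between Lgr5 High and the second, and 0.327 between the EphB2 High replicates themselves. The Lgr5 High array was at an SD of 0.601 and 0.575 from the EphB2 Medium arrays, 0.972 and 1.08 from the EphB2 Low arrays, and 0.585 from Lgr5 Low. By the SD the Lgr5 High array lay nearest to EphB2 High, though farther than a replicate. The median absolute difference did not give that order, at 0.249 and 0.23 to the EphB2 High arrays and 0.241 to Lgr5 Low.

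Enterocyte genes gave the widest separation of the sorts. The median level of the 27 genes was 8.93 in Lgr5 High, 10.31 and 10.29 in EphB2 High, 12.07 and 12.16 in EphB2 Medium, and 13.41 and 13.56 in EphB2 Low. Lgr5 Low, hybridized in the same round as Lgr5 High, read 12.55. Lgr5 High was thus below all 7 other arrays for this list median. Of the 27 genes, 24 lay below both EphB2 High arrays and 2 above both, where 44.7% of all genes lay below both and 32.4% above both. At least 2-fold below both and kept were 13 of the 27, and 0 were discounted. The discount could hardly apply here, since on this side it needs Lgr5 Low below the lowest EphB2 array. For this list the lowest EphB2 medians were those of EphB2 High, at 10.31 and 10.29, and Lgr5 Low read 12.55. Being kept is therefore no check on these genes, and the part of genotype or hybridization was not tested.

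Lct encodes lactase, the brush border enzyme that splits milk sugar. It read 5.76 in Lgr5 High, 8.03 and 8.98 in EphB2 High, 11.39 and 11.45 in EphB2 Medium, 13.61 and 13.69 in EphB2 Low, and 11.80 in Lgr5 Low. The groups did not overlap, and the difference between the stem sorts was -2.75 ± 0.37 (limma adjusted p = 0.147), or 6.72-fold. Alpi, the intestinal alkaline phosphatase, read 8.06 in Lgr5 High against 11.09 and 10.09 in EphB2 High, a difference of -2.54 ± 0.39 (adjusted p = 0.173). Slc6a19, which carries neutral amino acids across the brush border, read 4.05 against 6.07 and 6.99. For all of these the Lgr5 High array was the lowest of the 8.

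The apolipoproteins Apoa1 and Apoa4, which enterocytes load onto fat particles, read 9.22 against 11.26 and 11.80, and 8.25 against 10.07 and 10.05. Apoa4 had the smallest error of the named enterocyte genes, at -1.81 ± 0.14 (limma adjusted p = 0.0639). Krt20, a keratin of differentiated cells, read 9.15 against 10.72 and 10.70. The EphB2 High replicates of Apoa4 and Krt20 differed from each other by far less than either differed from Lgr5 High. In contrast, the drug-metabolising enzyme Cyp3a11 read 4.12 against 4.90 and 7.20, and Slc15a1, a transporter of small peptides, 5.91 against 7.04 and 8.61. For these genes the gap within the EphB2 High pair was wider than that from its nearer array to Lgr5 High. Fabp2, the fatty acid-binding protein of enterocytes, read 13.40 against 13.42 and 13.60, a difference of -0.12 ± 0.16 (adjusted p = 0.808), so not every enterocyte gene separated the sorts.

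Goblet cells make the mucus of the gut. Of 22 goblet genes 21 lay below both EphB2 High arrays, 1 above both, and 7 lay at least 2-fold below and were kept. The list median was 10.57 in Lgr5 High, 11.68 and 11.64 in EphB2 High and 11.94 in Lgr5 Low. Muc2, the main secreted mucin, read 10.82 in Lgr5 High, 11.63 and 11.67 in EphB2 High, 12.33 and 12.77 in EphB2 Medium, 12.80 and 12.49 in EphB2 Low, and 13.00 in Lgr5 Low. Lgr5 High was the lowest and Lgr5 Low the highest for this mucin, at -0.83 ± 0.24 between the stem sorts (limma adjusted p = 0.288).

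Clca1, a protein secreted with mucus, read 10.72 against 12.37 and 12.43, a difference of -1.68 ± 0.21 (limma adjusted p = 0.147). Fcgbp, another mucus protein, read 12.09 against 13.28 and 13.02. Fer1l6, a ferlin-family membrane protein, read 5.23 against 7.44 and 7.37, and Lgr5 Low read 10.12. Both EphB2 High arrays were close to each other for these 3 genes and above Lgr5 High. Retnlb, an antibacterial resistin-like protein, read 6.05 against 8.04 and 7.77. The trefoil peptide Tff3 stood less far apart, at 13.13 against 13.63 and 13.62. Agr2, also of the goblet list, stood closer still, at 13.79 against 13.96 and 14.04, and its other probe set gave 0.26. Spdef, the transcription factor of goblet and Paneth cell maturation, read 9.24 against 10.08 and 10.02.

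Tuft cells are rare chemosensory cells of the epithelium. Of 23 tuft genes 17 lay below both EphB2 High arrays, 2 above both, and 3 lay 2-fold below and were kept. The list median difference depended on the replicate, at -0.80 against the first EphB2 High array and -0.43 against the second. Dclk1, the kinase used as the tuft cell marker, read 6.36 in Lgr5 High, 9.07 and 8.70 in EphB2 High, 7.77 and 6.35 in EphB2 Medium, 6.01 and 5.04 in EphB2 Low, and 8.09 in Lgr5 Low. Among the EphB2 sorts the High arrays were the brightest for Dclk1, and Lgr5 High lay below them, at -2.53 ± 0.65 (limma adjusted p = 0.252). Its 8 other probe sets all had differences below 0, between -1.98 and -0.20.

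Spib, a transcription factor of the Ets family, read 6.90 against 9.34 and 8.95, a difference of -2.25 ± 0.35 (limma adjusted p = 0.176). Trpm5, the cation channel of taste signalling, read 8.04 against 9.39 and 8.79, and Lgr5 Low read 9.13. Alox5ap, which helps make leukotrienes, read 7.64 against 9.28 and 8.54, and Fyb, an adaptor protein shared with blood cells, 6.95 against 9.16 and 8.62. Lgr5 High lay below both EphB2 High arrays for each of these. A second probe set of Fyb gave a difference of 0.09. Pou2f3, the factor that specifies tuft cells, was dim, at 4.02 against 5.02 and 4.34, and was discounted.

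Enteroendocrine cells are the hormone-making cells of the epithelium. Of their 27 genes 16 lay below both EphB2 High arrays, 2 above both and 9 between them. Over all genes 44.7% lay below both and 32.4% above both. Of the 27, 3 lay 2-fold below and were kept, against 0.803% of all genes. Here the EphB2 High replicates stood apart, with a list median difference of -0.70 against the first and -0.10 against the second. Lgr5 High lay between the pair for the hormone genes Gcg, at 10.65 against 11.19 and 10.13, and Cck, at 7.49 against 8.02 and 7.18. Gip, a hormone that raises insulin release after a meal, read 6.78 in Lgr5 High, 11.67 and 9.17 in EphB2 High, 12.98 and 11.83 in EphB2 Medium, 13.58 and 13.18 in EphB2 Low, and 13.20 in Lgr5 Low. Lgr5 High was the lowest array for Gip, and the first EphB2 High array exceeded the second by more than the error of the contrast, -3.64 ± 1.01 (limma adjusted p = 0.278).

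Chga, the granule protein chromogranin A, read 8.83 against 11.59 and 10.24, and Chgb, its relative, 10.99 against 12.93 and 12.20. Tph1, which makes serotonin, read 7.81 against 9.51 and 8.55, and Tac1, the precursor of substance P, 9.21 against 11.01 and 9.82. In all 4 the first EphB2 High array was the brighter of the pair and Lgr5 High was below both. Reg4, a secreted lectin of these cells, showed little replicate spread, at 12.86 against 13.63 and 13.59 (-0.75 ± 0.17, limma adjusted p = 0.221).

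**Figure D2:**
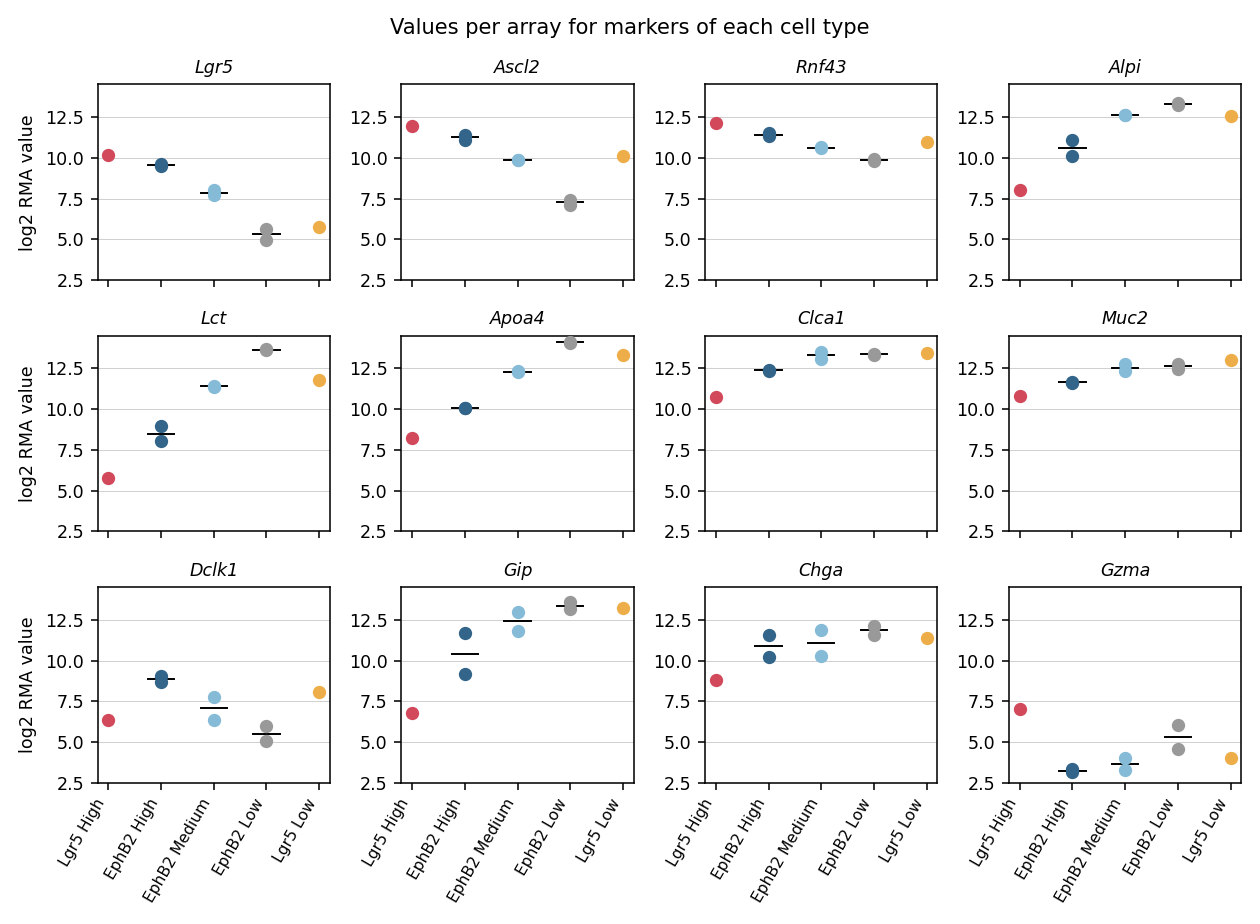
Log2 RMA values of 12 genes on all 8 arrays, 1 point per array, with a bar at the mean of each pair of EphB2 arrays. Lgr5 High is lowest for Alpi, Lct, Apoa4, Clca1, Muc2, Gip and Chga, and highest for Lgr5, Ascl2, Rnf43 and Gzma.

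Early secretory genes differed by less, with a median of -0.35 over 9 genes, 8 of them below both EphB2 High arrays. Atoh1, the factor that commits cells to the secretory fate, read 8.37 against 8.98 and 9.27, with 9.58 in Lgr5 Low. Gfi1, a repressor that acts after it, read 6.91 against 7.87 and 8.11 (-1.07 ± 0.19, limma adjusted p = 0.18). Sox4 was the member above both, at 11.77 against 11.17 and 11.52, though 1 of its 7 other probe sets gave a difference of -0.19.

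To show which letters lie at the start of genes far lower in Lgr5 High, the promoters of Lct and Gip are printed. They were chosen by hand and not as the largest differences. The sequences are from RefSeq (GRCm38.p6, 300 bases around the gene's start, gene strand). The 6-letter GATA site AGATAA, or TTATCT where it lies on the other strand, is in capitals. GATA factors are known regulators of intestinal genes, lactase among them. Lct lies at chr1:128328269-128328568 on the minus strand and Gip at chr11:96024295-96024594 on the plus strand.
Lct promoter: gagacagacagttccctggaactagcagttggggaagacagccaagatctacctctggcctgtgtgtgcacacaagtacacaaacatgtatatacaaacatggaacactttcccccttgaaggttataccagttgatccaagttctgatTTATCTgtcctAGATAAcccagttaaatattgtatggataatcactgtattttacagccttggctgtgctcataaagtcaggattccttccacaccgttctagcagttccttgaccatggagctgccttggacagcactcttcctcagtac
Gip promoter: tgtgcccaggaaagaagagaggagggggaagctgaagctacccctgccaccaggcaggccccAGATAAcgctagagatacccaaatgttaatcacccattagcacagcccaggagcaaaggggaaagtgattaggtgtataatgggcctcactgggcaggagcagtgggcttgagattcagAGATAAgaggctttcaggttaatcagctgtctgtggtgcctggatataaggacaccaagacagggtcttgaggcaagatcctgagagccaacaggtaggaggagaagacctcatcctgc
Each held 2 such sites. Searched on both strands, AGATAA was in 5 of 24 enterocyte promoters in the RefSeq table (20.8%), 7 of 24 enteroendocrine (29.2%), 3 of 11 goblet (27.3%), 4 of 20 tuft (20.0%) and 2 of 17 stem cell promoters (11.8%), against 11.4% of all 27025 promoters. These matches describe letters only and say nothing of binding.

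Stem cell genes lay on the other side, by small amounts. Of 27 measured genes 21 lay above both EphB2 High arrays and 0 below both, and all 27 differences were above 0, between 0.04 and 1.69. None was 2-fold above and kept. The median was 0.37 against the first EphB2 High array and 0.14 against the second. The list rests on general knowledge of crypt stem cells that in part comes from arrays of sorted crypt cells, these samples possibly among them, so its direction is no independent evidence.

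Lgr5 itself read 10.15 in Lgr5 High, 9.48 and 9.64 in EphB2 High, 7.70 and 8.01 in EphB2 Medium, 5.66 and 4.96 in EphB2 Low, and 5.75 in Lgr5 Low. Lgr5 High was the highest array, by 0.59 ± 0.31 over EphB2 High (limma adjusted p = 0.494), and a second probe set gave 1.22. Lgr5 was also the gene the reporter sort selected on. Ascl2, a Wnt-driven transcription factor that stem cells need, read 11.97 against 11.11 and 11.40. Rnf43, a ligase that removes Wnt receptors, read 12.12 against 11.34 and 11.51 (0.70 ± 0.17, limma adjusted p = 0.231). Igfbp4, which binds insulin-like growth factors, read 11.35 against 10.51 and 10.72, and all 5 of its other probe sets gave 0.80 to 1.23.

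Tnfrsf19, a receptor of the tumour necrosis factor family, read 10.52 in Lgr5 High and 9.72 and 10.07 in EphB2 High. Smoc2, a secreted matrix protein, read 12.53 against 12.16 and 12.39. In these genes the gap to the nearer EphB2 High array was similar to the gap within the pair. Olfm4, a glycoprotein abundant in stem cells, read 13.71 against 13.31 and 13.44, and was discounted because Lgr5 Low read 13.51. Cttnbp2, a cytoskeletal protein, was the widest of the list at 10.06 against 8.30 and 8.45, and was also discounted, with Lgr5 Low at 8.61.

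A second set of markers, of slow-cycling or regenerating cells, had 8 measured genes with a median of 0.01, 3 above both EphB2 High arrays and 3 below both. Clu, the chaperone clusterin and a marker of revival stem cells, was the only member 2-fold above and kept. It read 9.42 in Lgr5 High, 7.64 and 8.02 in EphB2 High, and between 6.77 and 7.59 on the 5 other arrays. Lgr5 High stood above all others for Clu, at 1.59 ± 0.24 (limma adjusted p = 0.173), and its 3 other probe sets gave 1.52 to 1.87.

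Paneth cells guard the crypt base with antimicrobial peptides and supply Wnt ligands. Of 33 Paneth genes listed 13 had a probe set of their own, of which 2 lay above both EphB2 High arrays, 5 below both and 6 between. Discounted were 7 of the 13, against 5062 of all 18193 genes. In the difference of differences, (Lgr5 High minus Lgr5 Low) minus (EphB2 High minus EphB2 Medium), all 13 were below 0. Their median there was -0.77, against -0.07 over all genes. Lyz1, the lysozyme, read 14.05 in Lgr5 High, 13.91 and 14.07 in EphB2 High, and 14.37 in Lgr5 Low. Mmp7, the protease that activates defensins, read 12.36 against 12.46 and 12.62, with 12.98 in Lgr5 Low. The ribonuclease Ang4 read 13.59 against 13.66 and 13.87, with 14.12 in Lgr5 Low. Lgr5 Low was the highest of the 8 arrays for these 3 genes, while Lgr5 High and EphB2 High lay close together. The sign of these small differences turned with another probe set for Lyz1 (-0.56) and Ang4 (0.11).

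The defensin Defa3 read 7.68 against 8.24 and 8.46, and Wnt3, a Wnt ligand of Paneth cells, 5.92 against 6.33 and 6.71. Nupr1, a stress-induced chromatin protein, was the Paneth list member of largest difference, at 12.62 against 11.80 and 11.83, but was discounted with 13.39 in Lgr5 Low. 

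Genes of dividing cells lay slightly lower in Lgr5 High than in EphB2 High, but not once the Lgr5 Low and EphB2 Medium arrays were subtracted. Of 29 mitosis genes 24 lay below both EphB2 High arrays and 2 above both, with a median of -0.23. Of 31 DNA replication genes 23 lay below both and 2 above both, with a median of -0.17, against 44.7% of all genes below both. In the difference of differences, (Lgr5 High minus Lgr5 Low) minus (EphB2 High minus EphB2 Medium), the medians were -0.021 with 12 of 29 genes above 0, and -0.025 with 14 of 31 above 0. None in either list was 2-fold outside. The proliferation marker Mki67 read 13.09 in Lgr5 High and 13.28 and 13.11 in EphB2 High, a difference of -0.11 ± 0.27 (limma adjusted p = 0.901). Mcm10, needed to start replication, was the widest of these lists at 10.36 against 11.09 and 11.00. For ribosome biogenesis the median was -0.13 over 27 genes, 15 of them below both.

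The contrast of EphB2 Medium with Low shares no array with that of the stem sorts. limma called 2327 genes higher in EphB2 Medium than in Low (12.8%) and 1586 lower (8.72%). Among genes higher in EphB2 Low the median difference between Lgr5 High and EphB2 High was -0.17, and 58.8% lay below both EphB2 High arrays. Among genes higher in EphB2 Medium it was -0.10, with 52.1% below both, and among the other 14280 genes -0.03, with 42.0% below both. The 208 genes at least 4-fold higher in EphB2 Low had a median of -0.32, and the 135 at least 4-fold higher in EphB2 Medium one of 0.07. Before the discount, whose range includes these Medium and Low arrays, 171 genes lay 2-fold below both EphB2 High arrays, of which 75 were higher in EphB2 Low, 12 higher in EphB2 Medium and 84 neither. For the 85 genes 2-fold above, these counts were 6, 18 and 61. After the discount they were 74, 9 and 63 of 146 below and 4, 10 and 30 of 44 above, counts that are not independent of the Medium and Low arrays.

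**Figure D3:**
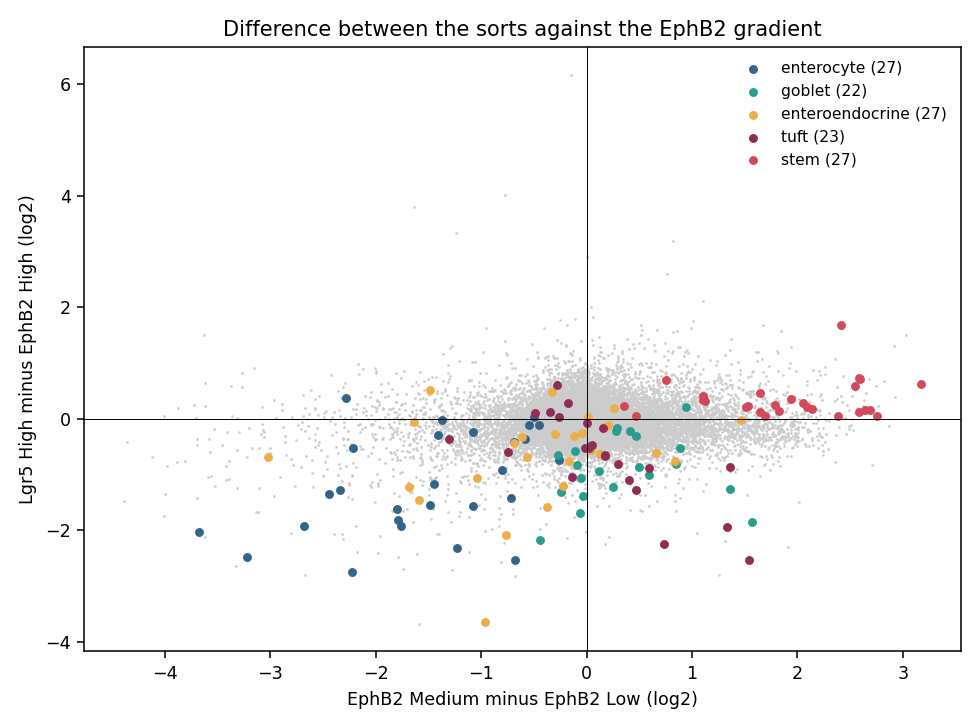
Each grey point is 1 of 18193 genes, with the difference between EphB2 Medium and Low on the x axis and that between Lgr5 High and EphB2 High on the y axis, both in log2 units. The marked enterocyte genes lie to the lower left, the stem cell genes to the right just above 0, and tuft and goblet genes lie below 0 on both sides of the vertical line.

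The genes of largest negative difference, taken without regard to lists, were led by Afp and Gip. Afp, a fetal serum protein, read 4.58 in Lgr5 High, 8.87 and 7.64 in EphB2 High and 7.92 in Lgr5 Low, or 12.8-fold lower. Its 4 other probe sets ran from -5.50 to 0.49. The irritant-sensing channel Trpa1 read 3.98 against 7.63 and 5.97, and Slc5a4a, of the sodium-glucose transporter family, 4.34 against 6.28 and 8.01. Lgr5 High lay below both EphB2 High arrays in each, and the pair itself was more than 1 log2 unit apart in all 3.

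Less replicate spread was seen for Cdkn2b, the cell cycle inhibitor p15, which read 6.84 against 9.93 and 9.16 (-2.71 ± 0.41, limma adjusted p = 0.172). Reg3a, a secreted lectin of the Reg family, read 6.72 in Lgr5 High, 9.33 and 8.97 in EphB2 High, 11.21 and 11.41 in EphB2 Medium, 12.79 and 13.05 in EphB2 Low, and 11.54 in Lgr5 Low. Lgr5 High was again the lowest of the 8 arrays, at -2.43 ± 0.22 (adjusted p = 0.0807). The secreted protein Fam3b, the Bcl2 relative Bcl2l15, the phosphatase Ptpn22 and the transporter Mfsd4b2 had differences of -2.70, -2.57, -2.41 and -2.39. Slc9a3, the sodium-proton exchanger of the brush border, had -2.47, though its other probe set gave 0.12. All 15 named genes of this end had adjusted p-values of 0.0807 or more.

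The lowest adjusted p-values among single probe sets that were kept belonged to genes lower in Lgr5 High. Dpep1, a brush border dipeptidase, gave -3.04 ± 0.21 (limma adjusted p = 0.0629), and its brighter probe set read 6.18 against 7.90 and 8.62. Synpo, an actin-binding protein, read 4.14 against 6.14 and 6.36, although its other probe set gave 0.29. Hsd17b6, a steroid dehydrogenase, read 5.32 against 7.35 and 7.40. The EphB2 High replicates of Synpo and Hsd17b6 lay close together, those of Dpep1 farther apart, and Lgr5 High lay below both in all 3.

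Of 7 genes known from the ileum, the distal small intestine, 3 lay 2-fold below both EphB2 High arrays and were kept. Fabp6, the bile acid-binding protein of the ileum, read 10.22 against 11.33 and 12.33, with 13.54 in Lgr5 Low. Slc51b, which exports bile acids, read 8.70 against 10.47 and 10.65 (-1.86 ± 0.18, limma adjusted p = 0.087). Cubn, the receptor for the vitamin B12 complex, read 4.36 against 5.39 and 7.38. All 3 read lower in Lgr5 High than on any other array. Of 9 proximal genes, 4 lay above both EphB2 High arrays and 5 below both, and 0 were 2-fold outside. Fabp6, Slc51b and Cubn are themselves expressed by enterocytes.

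At the other end, Gzma, the serine protease granzyme A of cytotoxic lymphocytes, showed the largest kept difference. It read 7.05 in Lgr5 High, 3.35 and 3.14 in EphB2 High, 4.03 and 3.28 in EphB2 Medium, 6.03 and 4.55 in EphB2 Low, and 4.04 in Lgr5 Low. Lgr5 High was the highest array, at 3.80 ± 0.62 (limma adjusted p = 0.179), or 13.9-fold. Of 18 lymphocyte genes 13 lay above both EphB2 High arrays and 3 below both, with a median of 0.37. Over all genes 32.4% lay above both and 44.7% below both. Of the 18, 3 reached the median of all values on any array, and the list's median level was 4.75 in Lgr5 High and 3.94 to 4.73 on the EphB2 arrays. Ccl5, a chemokine of such cells, read 5.04 against 3.62 and 3.20. The T cell receptor subunit Cd3e read 4.93 against 5.29 and 5.19, and the pan-leukocyte marker Ptprc 3.84 against 3.49 and 3.40, all below the array medians. The part of lymphocytes in the result was not tested.

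The other cell types outside the epithelium showed no list with a gene kept 2-fold outside. The medians were 0.13 for 10 B and plasma cell genes, 0.12 for 19 myeloid genes, 0.04 for 8 mast cell genes, -0.03 for 16 stromal genes and 0.08 for 12 endothelial genes. Of the 10 B and plasma cell genes, 6 lay above both EphB2 High arrays and 4 below both. Among them Jchain lay 2-fold above both but was discounted. It was dim, at 4.44 in Lgr5 High, 3.37 and 3.35 in EphB2 High and 4.55 in Lgr5 Low. Vim, an intermediate filament protein of stromal and blood cells, was the widest stromal member, at 7.59 against 9.77 and 8.45. The EphB2 High replicates differed from each other by more than the nearer one did from Lgr5 High for Vim.

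Among genes with an assigned function, those that followed Gzma in size were of no single list. Tenm4, a cell adhesion protein, read 7.83 in Lgr5 High against 5.43 and 6.23. Lifr, the receptor of leukaemia inhibitory factor, read 6.27 against 3.74 and 5.23, but its other probe sets ran from -0.34 to 0.82. Pgc, a pepsinogen, read 8.90 against 7.15 and 7.15, 6.61 and 6.19 in EphB2 Medium, 5.44 and 5.33 in EphB2 Low, and 6.59 in Lgr5 Low. For Pgc the order of levels was Lgr5 High, EphB2 High, EphB2 Medium and Lgr5 Low, which overlapped, and then EphB2 Low (1.75 ± 0.21 between the stem sorts, limma adjusted p = 0.143).

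Both subunits of the asialoglycoprotein receptor were among the 15 named genes of this end. Asgr1 read 8.56 against 6.55 and 7.55, and Asgr2 read 6.65 against 5.04 and 4.99. Cyp2e1, a cytochrome that oxidises ethanol, read 11.38 in Lgr5 High, 9.44 and 10.31 in EphB2 High, 8.13 and 8.22 in EphB2 Medium, and 5.28 and 5.02 in EphB2 Low. Fstl1, a secreted follistatin-like protein, followed the same order with 9.15, then 7.15 and 8.01, then 6.14 and 6.06, then 4.36 and 4.14. For both genes the gap within the EphB2 High pair was only slightly smaller than that from its nearer array to Lgr5 High.

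Abca1, the cholesterol exporter, had another order, at 7.54 in Lgr5 High and 5.79 and 6.30 in EphB2 High but 10.32 on both EphB2 Low arrays, and its 2 other probe sets gave differences from -0.38 to 0.73. Casp12, a caspase of the endoplasmic reticulum, read 8.48 against 6.88 and 6.83, and Wfdc15b, a secreted protease inhibitor, 9.74 against 8.35 and 8.25. Npy2r, a neuropeptide receptor, read 6.20 against 4.76 and 4.95. The remaining Akr1d1, a reductase of bile acid synthesis, and Cyyr1, a membrane protein, had differences of 1.69 and 1.58, and another probe set of Cyyr1 gave -0.23. These 15 genes had limma adjusted p-values of 0.14 or more.

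The discount set aside 15.2% of probe sets on the higher side and 13.3% on the lower side. On the lower side it could hardly apply to genes lowest in EphB2 High among the EphB2 sorts and higher in Lgr5 Low. Lct and Gip were of this kind. Of the 85 genes (0.467%) 2-fold above both EphB2 High arrays 41 were discounted (0.225%), and of the 171 below (0.94%) 25 were (0.137%). The Lgr5 arrays stood together against all EphB2 arrays most clearly in Defa31, a defensin whose probes can match near-identical family members. It read 13.85 in Lgr5 High and 14.19 in Lgr5 Low, against 7.53 to 8.20 on the 6 EphB2 arrays (6.17 ± 0.18, limma adjusted p = 0.0019). Igkv8-30, an immunoglobulin variable segment, read 7.32 and 7.34 on the Lgr5 arrays against 2.85 to 4.61, and Pcdh17, a protocadherin, 5.65 and 6.22 against 2.66 to 2.94 (adjusted p = 0.0205, but 0.0667 with the replicate block and 0.128 to 0.174 with any 1 EphB2 array left out). The ion channel P2rx7 read 7.52 and 6.75 against 4.15 to 5.67, and its 2 other probe sets gave -0.21 and 3.35. On the lower side, the kinase Stk26 read 4.66 in Lgr5 High and 3.54 in Lgr5 Low, against 6.65 and 7.28 in EphB2 High, and Duoxa2, which matures a peroxide-making oxidase, 4.02 and 4.53 against 6.62 and 5.87.

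**Figure D4:**
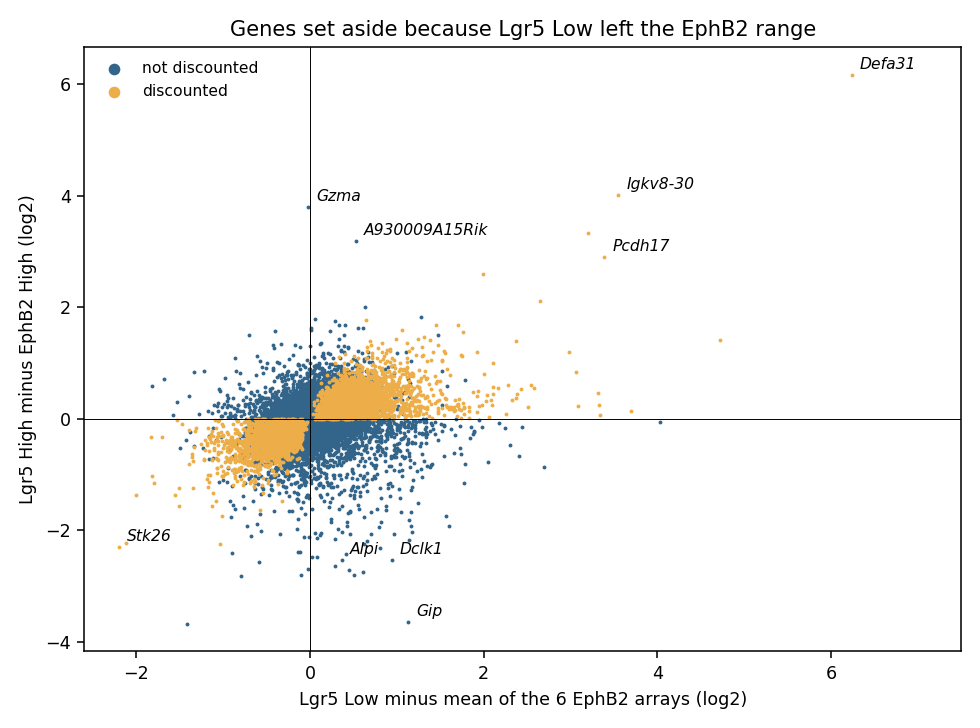
Each point is 1 gene, with the distance of Lgr5 Low from the mean of the 6 EphB2 arrays on the x axis and the difference between Lgr5 High and EphB2 High on the y axis, both in log2 units. Discounted genes (orange) fill the upper right and lower left, with Defa31 at 6.17, while Gzma at 3.80 and Gip at -3.64 lie among the genes that were kept.

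A single neighbouring gene of Lgr5 stood out in the Lgr5 High array. A930009A15Rik, a transcript of unassigned function, is the gene next to Lgr5 on chromosome 10 in the RefSeq table, with 0 genes between them, and was looked at after its values were seen. Its brighter probe set read 9.17 in Lgr5 High, 5.77 and 6.19 in EphB2 High, 4.27 and 4.85 in EphB2 Medium, 3.68 and 3.80 in EphB2 Low, and 5.29 in Lgr5 Low. Lgr5 High stood well above all others, at 3.19 ± 0.30 (limma adjusted p = 0.0807), and the level among the EphB2 sorts was highest in High and lowest in Low, the order that Lgr5 had too. Its other probe set was called, at 4.75 ± 0.26 (adjusted p = 0.0205), but not with the replicate block (0.0667), nor without the first EphB2 High array (0.0871) or any Medium or Low array (0.128 to 0.147). It was discounted, since Lgr5 Low at 5.54 also exceeded the EphB2 maximum of 5.28. The same rule discounted Esr1, the oestrogen receptor, whose called probe set read 6.22 in Lgr5 High, 3.59 in Lgr5 Low and 2.28 to 2.68 on the EphB2 arrays, while its brightest probe set gave 0.08. That call held with the block (0.0449) but not with any 1 EphB2 array left out (0.128 to 0.147). The discount goes by order and not by size, so a gene can be set aside while Lgr5 High lies far above Lgr5 Low. Over the 50 nearest genes, 25 on each side of Lgr5, 29.7% of 111 probe sets were discounted, against 28.5% of all probe sets, and the 2 probe sets of A930009A15Rik were the only ones 2-fold outside both EphB2 High arrays. Whether the knock-in allele has a part in this was not tested.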

How the data were processed

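Values are the log2 intensities that the authors deposited, made with RMA per the submitters' processing notes; its version and any joint normalization of all 8 arrays were not given in the sources used here. Because RMA evens out the distributions of arrays, shifts in a cell's total RNA are hidden, and the number of arrays limits the precision. Of 45101 probe sets, 64 controls, 932 naming several genes and 9160 unnamed in the annotation table used were left out; 34741 of the remaining 34945 had a gene ID in RefSeq's table (GRCm38.p6).

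limma 3.58.1 (R 4.3.3, 2-sided) was fitted on all 8 arrays with 5 groups (3 residual degrees of freedom), with Benjamini-Hochberg adjustment over 34945 probe sets and calls below 0.05. On simulated data it called 46 of 50 changes of 2, 45 of 50 of -2 and 5 of 50 of 1 (log2), with 4 false calls among the probe sets left unchanged. The simulated noise was independent on each array, drawn with limma's own variances, and held no effect of genotype or hybridization. The simulation therefore cannot say what share of real differences between these sorts was detected. Members, the 28 gene lists and settings were chosen with earlier results of these data known. Named were Lgr5, the 15 largest kept differences per direction outside both EphB2 High arrays and above the median level on the brighter side (names without assigned function skipped), per list the 3 defining members and the 5 largest differences, and the 6 largest discounted ones per direction, not all of which are printed. Since no call was kept, the largest differences not called took their place, as that rule provides. EphB2 numbers mark a shared hybridization in the labels and so pair the samples. Same-numbered deviations correlated at 0.45 (High with Medium), 0.13 (High with Low) and 0.21 (Medium with Low). Alternatives were leaving out each EphB2 array in turn, the replicate block, other scalings and dropping dim probe sets. Others were an intensity trend, 1 probe set per gene and a difference of differences. Lgr5 Low, on which the discount rests, was not left out. Ephb2 had no probe set of its own and was not analysed here.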

Additional observations from a re-analysis of the deposited data

How the results depend on the processing

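limma's 4 calls became 2 with the replicate block, in which the hybridization number pairs the EphB2 arrays, 7 without dim probe sets, 92 with the intensity trend and 0 in the difference of differences, (Lgr5 High minus Lgr5 Low) minus (EphB2 High minus EphB2 Medium), where 1976 had an unadjusted p below 0.05. Leaving out 1 EphB2 array at a time gave 1 to 2 calls. Against 0 kept calls in the main setting, 1 was kept with quantile normalization and 1 with median centring (Dpep1 in both), 3 without dim probe sets, 65 with the intensity trend, 4 with 1 probe set per gene and 4 with no discount. The block kept 0, and ended the calls of Pcdh17 and A930009A15Rik (adjusted p = 0.0667 for both) but not those of Defa31 and Esr1. With any 1 EphB2 array left out only Defa31 stayed called, except that A930009A15Rik did too without the second EphB2 High array (0.0486). Kept probe sets 2-fold above (84) became 54 without dim ones, 44 with 1 per gene, 182 with no discount and 456 at 1.5-fold, a limit added after seeing the data, and 80 to 262 with 1 EphB2 array left out. Those below (211) became 789 at 1.5-fold and 204 to 436 with 1 array left out.

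List medians in the difference of differences were -0.77 for Paneth, -1.26 for goblet, -1.33 for tuft, -1.25 for enteroendocrine, -1.59 for enterocyte and 0.16 for lymphocyte genes, and near 0 for mitosis, replication and MHC class II genes. The goblet median was -0.76 with quantile normalization. With 1 EphB2 High array left out, medians ran from -0.70 to -0.10 for enteroendocrine and from -1.24 to -1.03 for enterocyte genes, and were 0.43 and 0.44 for lymphocyte genes. The lymphocyte median was 0.34 with quantile normalization, 0.38 with median centring, 0.37 without dim probe sets and 0.40 with the median over a gene's probe sets. The sign turned in the difference of differences for Lyz1 (-0.55), Nupr1 (-1.17), Ptprc (-0.016), Mki67 (0.087), Defa31 (-0.013), Pcdh17 (-0.44) and Stk26 (0.24). It also turned there for Ier2 (-0.039) and for the brightest probe set of Esr1 (-0.086), while the called probe set of Esr1 gave 2.68. Among probe sets that reached the median level on any array, it turned with another for Lyz1 (-0.56), Ang4 (0.11) and Slc9a3 (0.12). Dimmer ones turned it for Sox4 (-0.19), Fyb (0.09), Afp (0.49), Synpo (0.29), Lifr (-0.34), Cyyr1 (-0.23), Abca1 (-0.38), P2rx7 (-0.21) and Esr1 (-0.10). Another probe set also turned it for Agr2 (0.26). With 1 EphB2 High array left out the sign turned for Lyz1 (-0.019 to 0.14) and the brightest probe set of Esr1 (-0.50 to 0.66). In both this was without the first, as it was for Gcg (-0.54 to 0.52) and Cck (-0.53 to 0.31). The called probe set of Esr1 gave 3.60 without the first and 3.94 without the second. The cause of these changes was not tested.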

Other observations

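As a list, genes of the interferon response, which cells switch on against viruses, were clearly lower in Lgr5 High only against the first EphB2 High array. The median over 19 genes was -0.79 against the first and -0.05 against the second, where that of all genes was also -0.05. Of the 19, 10 lay below both, a share near the 44.7% of all genes, and 0 above both, against 32.4%. All 19 differences from the mean of the pair were below 0. At least 2-fold below both and kept were 2 of the 19, against 0.803% of all genes. Ifit1, an interferon-induced RNA-binding protein, read 3.55 in Lgr5 High, 5.91 and 5.30 in EphB2 High, 7.95 and 7.32 in EphB2 Medium, 10.67 and 10.21 in EphB2 Low, and 7.94 in Lgr5 Low. Usp18, which dampens interferon signalling, read 5.25 against 7.15 and 6.34. In both genes the EphB2 Low arrays were the brightest and Lgr5 High the dimmest.

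MHC class II genes, which present antigen and are also expressed by intestinal epithelium, lay on the other side. All 8 differences were above 0, with a median of 0.38, and 6 genes lay above both EphB2 High arrays, as did 32.4% of all genes. In the difference of differences the median was 0.01, with 4 genes above 0 and 4 below. H2-Eb1 read 12.16 in Lgr5 High and 11.71 and 11.08 in EphB2 High (0.77 ± 0.48, limma adjusted p = 0.562) and between 10.18 and 11.50 on the other arrays. The second EphB2 High array was the lower of the pair. Immediate early genes, which cell dissociation can induce, had a median of 0.16 over 22 genes. Of the 22, 15 lay above both EphB2 High arrays and 3 below both, against 32.4% and 44.7% of all genes. Discounted were 13 of the 22, against 5062 of all 18193 genes. Ier2 read 12.35 against 11.86 and 11.97 with 12.46 in Lgr5 Low. Of the remaining lists, 13 antimicrobial genes had a median of -0.48, with Reg3a and Retnlb 2-fold below and kept, and 13 colon genes one of -0.14. The dim lists of 6 neural and 3 red blood cell genes had medians of 0.20 and 0.17.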
